A study of Homo sapiens with 4 samples.

Results

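The genes described here are those that dipped on the array of THP-1 cells kept for 12 h with platelet-like particles and stood higher on both neighbouring arrays. A gene entered where its 12 h value lay at least 0.8 log2 below both the Pam3CSK4 value and the 24 h value, and where the highest of its 4 values reached 6.19, the median of all values in the table. That rule found 85 of 13422 genes past the level filter, or 0.633%. CD14 and CA2 were then left out, which gave 83 members of 19775 genes with a probe set of their own. The members were chosen by their Pam3CSK4, 12 h and 24 h values, so the dip itself is given below as a description and with no test. A probe set is a group of short probes that reads part of a transcript, and a gene was read on its probe set of highest mean.

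THP-1 is an established cell line of human acute monocytic leukaemia that serves as a model of monocytes. The 4 conditions were resting cells, cells given Pam3CSK4, and co-cultures of such treated cells with platelet-like particles, taken at 12 h or 24 h. Pam3CSK4 is a lipopeptide made by synthesis that binds the receptor pair of TLR1 and TLR2. All conditions used the same leukaemic line, and the 3 non-resting arrays shared Pam3CSK4. The labels name neither the cells that gave the particles nor the length of Pam3CSK4 treatment on the array without particles, so time and particles cannot be told apart. Each condition had 1 array, so there was no spread between cultures, and no p-value could be given.

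Integrins and chemoattractant receptors decide where a monocyte sticks and moves. Kinases of the Tec family, such as BTK, relay signals from immune receptors, and transcription factors such as KLF4 and GFI1 set the balance between progenitor, granulocyte and monocyte programs. Actin, spectrin and microtubule proteins shape the cell as it spreads and crawls.

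RNA integrity and the spread of values differed between the arrays, and the resting array had the widest control gaps. For GAPDH, the array's 3' control reading minus its 5' one, a gap that widens as RNA breaks down, was 0.92 log2 at 12 h, against 0.59 with Pam3CSK4, 0.70 at 24 h and 2.16 on the resting array. The same gap for ACTB was 3.17 at 12 h, against 2.91, 2.90 and 3.41. The interquartile range of all probe sets was 3.21 at 12 h and 3.28 to 3.33 on the other arrays. Genes with a mean level between 10 and 12 had a median 12 h minus Pam3CSK4 difference of -0.11, and genes between 6 and 8 had 0.02. The part of RNA integrity and of this narrower range in the dip was not tested. The reference genes ACTB and GAPDH themselves read 14.69 and 13.93 at 12 h, 14.79 and 14.12 with Pam3CSK4, and 14.68 and 13.98 at 24 h.

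The depth of a dip is used below for the distance, in log2, from the 12 h value up to the lower of the Pam3CSK4 and 24 h values. Over the 83 members the median depth was 0.93, from 0.80 to 1.91, which is 1.74-fold to 3.76-fold. Of the members, 26 dipped by at least 1.0 log2 and 4 by at least 1.5. At 12 h, 15 members read under 6.19, and no detection calls were used here. By fold, 40 members lay at least 2-fold below Pam3CSK4 at 12 h and 0 above, where 0.35% and 0.41% of all genes did. The rule used that contrast. The 24 h value lay within 0.3 log2 of the Pam3CSK4 value for 77 of 83 members, 92.8%, near the 96.3% of all genes past the filter. The median size of that gap was 0.121 over members and 0.0815 over all genes, and both arrays entered the rule. None of the 83 members was 2-fold higher at 24 h than with Pam3CSK4, where 0.0298% of all genes were. The others were TRPM1 at 0.77, CLEC4A at 0.32 and TRIM58 at 0.30 above their Pam3CSK4 value, and BMP8B at -0.49, ARPC1B at -0.36 and GFI1 at -0.31. Across all genes past the filter, 0.916% lay at least 0.8 log2 below Pam3CSK4 at 12 h, and 0.946% lay that far below 24 h. A peak of the same size at 12 h was seen for 0.432% of genes. In these whole-culture measurements, fewer cells of a kind and less RNA per cell cannot be told apart.

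**Figure D1:**
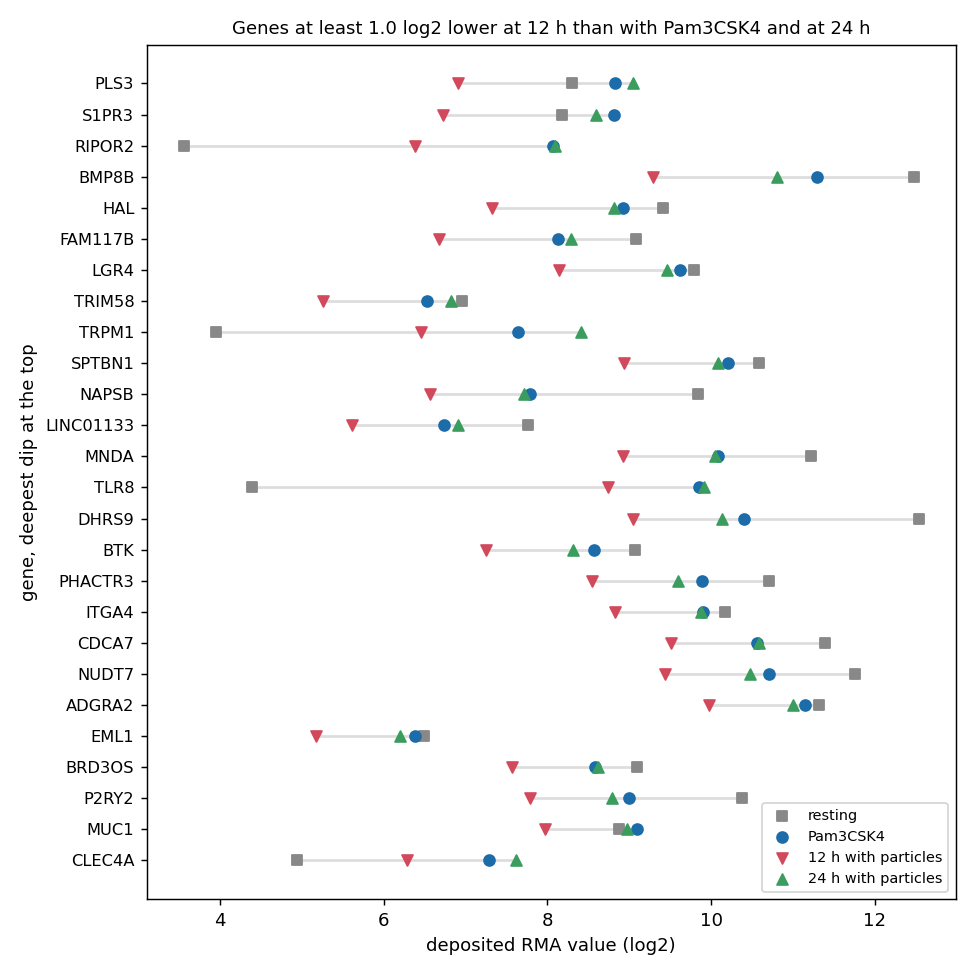
Deposited log2 value (x axis) of the 26 genes with a dip of at least 1.0 log2, listed by depth (y axis), with 1 point for each array and a grey line over the range. The red 12 h triangle lies left of the Pam3CSK4 and 24 h points in every row, as the rule requires, while the resting square lies to the left in RIPOR2, TRPM1, TLR8 and CLEC4A and to the right of the 12 h point in the others.

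Genes of the cytoskeleton and cell shape held 9 members with a median depth of 1.03. The values of each gene are given in the order resting, Pam3CSK4, 12 h and 24 h. PLS3, plastin 3, which bundles actin filaments, read 8.30, 8.83, 6.91 and 9.05, a depth of 1.91 and the deepest of the 83. RIPOR2 read 3.56, 8.07, 6.39 and 8.10. It was thus near the bottom of the scale in resting cells, and its 12 h value lay between the resting and Pam3CSK4 levels. SPTBN1, a beta spectrin of the membrane skeleton, read 10.59, 10.21, 8.93 and 10.09, and ADD3, an adducin that joins spectrin to actin, read 8.23, 8.48, 7.58 and 8.62. ARPC1B, a subunit of the Arp2/3 complex that branches actin, read 12.52, 12.69, 11.44 and 12.33. The actin and phosphatase regulator PHACTR3 read 10.70, 9.89, 8.55 and 9.60. Microtubule genes were present as well. The tubulin gene TUBA1A read 10.34, 10.57, 9.50 and 10.39, and its near-identical relatives could share its probes. EML1, a microtubule-binding protein, read 6.50, 6.39, 5.18 and 6.20, and SEPTIN6, a filament-forming GTPase, 8.84, 7.73, 6.81 and 7.66.

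Adhesion molecules, receptors and channels were the largest group, with 19 members. Of the integrins, ITGA4, the alpha chain of VLA-4 that binds VCAM1, read 10.18, 9.90, 8.83 and 9.88. ITGAL, the alpha chain of LFA-1 that binds ICAM1, read 9.98, 10.63, 9.54 and 10.37. The integrin gene ITGAM, which is no member, stood at 10.23 with Pam3CSK4, 9.57 at 12 h and 10.29 at 24 h. ADGRE5, the adhesion receptor CD97, read 9.35, 9.001, 8.05 and 9.01, and the endothelial adhesion receptor gene ADGRA2 read 11.32, 11.14, 9.97 and 11.003. The mucin gene MUC1 read 8.87, 9.09, 7.98 and 8.98, and the myeloid membrane protein gene MYADM 12.09, 9.50, 8.56 and 9.49. PCDH8, a protocadherin, read 6.78, 6.13, 5.15 and 6.25.

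Receptors coupled to G proteins and WNT receptors were among the same 19. S1PR3, a receptor for sphingosine 1-phosphate, read 8.18, 8.81, 6.72 and 8.60, a 3.66-fold dip. CXCR4, the receptor for CXCL12, read 10.63, 11.55, 10.69 and 11.70, so its 12 h value was near the resting one on that probe set. On its others the 12 h value lay above rest, at 8.12 against 7.40 and 8.02 against 7.25. P2RY2, a receptor for extracellular ATP and UTP, read 10.37, 8.99, 7.78 and 8.79. LGR4, which binds R-spondins and sustains WNT signalling, read 9.79, 9.62, 8.15 and 9.46, and the WNT receptor gene FZD6 read 8.84, 8.68, 7.87 and 8.77. GABBR2, a subunit of the GABA-B receptor, read 8.24, 10.63, 9.42 and 10.36. The relaxin receptor gene RXFP1 read 9.71, 8.33, 7.24 and 8.07.

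An innate sensor and a lectin receptor stood far above rest with Pam3CSK4. TLR8, an endosomal sensor of single-stranded RNA, read 4.39, 9.85, 8.74 and 9.91, a dip of 2.16-fold on a difference of 5.46 log2 between Pam3CSK4 and resting cells. CLEC4A, an inhibitory C-type lectin receptor of myeloid cells, read 4.95, 7.29, 6.29 and 7.61. Both kept part of their distance from resting cells at 12 h. The channel gene TRPM1 read 3.95, 7.64, 6.46 and 8.41, and its 24 h value was the one furthest above Pam3CSK4. TCAF1, which binds TRP channels, read 8.39, 7.83, 6.85 and 8.05, and MANSC1 7.35, 6.34, 5.41 and 6.53.

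Of the genes that relay signals, BTK, the Bruton tyrosine kinase, read 9.07, 8.57, 7.25 and 8.31, a depth of 1.06. PLCB1, a phospholipase C driven by G proteins, read 6.91, 7.06, 6.22 and 7.28, and GNAI1, an inhibitory G-protein alpha subunit, 7.47, 6.80, 5.91 and 6.91. The Ras-family GTPase gene RRAS2 read 8.17, 8.79, 7.93 and 8.75, and PEBP1, an inhibitor of RAF kinase, 12.74, 12.08, 11.17 and 11.97. TASL, an adaptor that links endosomal Toll-like receptors to IRF5, read 11.35, 10.89, 9.86 and 10.77. IKBIP, named for its binding to IKK, read 8.84, 9.08, 8.15 and 9.07. The ubiquitin ligase gene TRIM58 read 6.95, 6.52, 5.25 and 6.82, with a 12 h value well under the level filter. RNF175 read 9.57, 8.92, 7.89 and 8.76, the tankyrase gene TNKS2 8.61, 8.23, 7.18 and 8.11, and IVNS1ABP 9.79, 9.54, 8.62 and 9.43. No gene of this group differed 2-fold or more between Pam3CSK4 and resting cells, as held for 12638 of all 13422 genes past the filter.

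The 5 members of the secreted group had depths from 0.81 to 1.51. BMP8B, a bone morphogenetic protein gene, read 12.47, 11.29, 9.29 and 10.80. It was lower with Pam3CSK4 than at rest, lowest at 12 h, and did not reach its Pam3CSK4 value again at 24 h. LGALS2, a galectin of monocytes, read 6.25, 8.75, 7.71 and 8.63. FAM20C, a kinase of secreted proteins, read 8.26, 9.35, 8.17 and 9.06, so that on this probe set the 12 h value met the resting value. On its others past the level filter the 12 h value was 7.57 against 7.41 at rest, and 6.66 against 6.96. The semaphorin gene SEMA3G read 7.90, 6.92, 5.96 and 6.77, and FGF13, a member of the fibroblast growth factor family that stays inside the cell, 6.30, 6.07, 5.12 and 6.09.

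Transcription and chromatin genes made up 14 members with a narrow range of depths, 0.81 to 1.05. GFI1, a repressor that favours granulocytic over monocytic genes, read 11.13, 10.21, 8.997 and 9.90. KLF4, which promotes monocyte differentiation, read 8.93, 10.52, 9.67 and 10.51. These factors thus stood on opposite sides of rest with Pam3CSK4, and the rule required both to be lower at 12 h. On its other probe set KLF4 was only 0.15 log2 lower at 12 h. NFE2, a factor of megakaryocyte and erythroid cells, read 7.31, 6.10, 5.19 and 5.99, under the level filter on every array but the resting one. HHEX, a haematopoietic homeobox factor, read 6.70, 6.35, 5.50 and 6.42, and EOMES, a T-box factor, 7.70, 7.80, 6.86 and 7.82. ARNT, the partner of the hypoxia factors and of the aryl hydrocarbon receptor, read 9.66, 9.35, 8.35 and 9.29. WWTR1, the Hippo pathway coactivator TAZ, read 7.66, 6.80, 5.84 and 6.9997. Developmental factors were among them. DLX1 read 8.67, 8.27, 7.33 and 8.28, BARX1 9.32, 8.92, 7.99 and 8.85, and DACH1 7.92, 5.98, 5.10 and 6.06. The others were CDCA7, a chromatin factor of dividing cells, at 11.39, 10.56, 9.51 and 10.59, NACC2 at 10.69, 10.24, 9.29 and 10.27, BBX at 8.69, 8.64, 7.66 and 8.56, and L3MBTL3 at 7.98, 7.65, 6.75 and 7.61.

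Metabolic enzymes and transporters held 12 members, of which 7 were at least 2-fold lower with Pam3CSK4 than at rest. Of all 83 members 21 were, and of all genes past the filter 1.71%. HAL, which removes ammonia from histidine, read 9.42, 8.92, 7.32 and 8.81, a depth of 1.49. DHRS9, a short-chain dehydrogenase that acts on retinol, read 12.54, 10.40, 9.05 and 10.13. Fatty acid genes were present: ACADM, the medium-chain acyl-CoA dehydrogenase of mitochondria, read 12.16, 10.94, 10.12 and 10.95, and SLC27A2, a long-chain acyl-CoA synthetase and fatty acid carrier, 8.44, 7.41, 6.35 and 7.27. NUDT7, a coenzyme A diphosphatase of peroxisomes, read 11.76, 10.70, 9.43 and 10.47. SLC22A4, a carrier of ergothioneine and carnitine, read 8.52, 7.49, 6.63 and 7.49, and PYGL, a glycogen phosphorylase, 10.89, 9.78, 8.84 and 9.65. All of these were lower with Pam3CSK4 than at rest, as were 60 of all 83 members, and the rule required the further step down to 12 h. The zinc importers SLC39A10 and SLC39A4 read 9.19, 8.45, 7.52 and 8.53, and 11.23, 10.60, 9.65 and 10.58. ABCB4, a phospholipid exporter, read 7.05, 7.49, 6.33 and 7.22, TMT1A, a thiol methyltransferase, 8.27, 7.10, 6.17 and 7.21, and the glycosyltransferase gene B3GALNT1 8.13, 7.40, 6.60 and 7.65.

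In the nucleus, MNDA, the myeloid nuclear differentiation antigen of the PYHIN family, read 11.22, 10.08, 8.92 and 10.04. PMAIP1, which encodes the death-promoting protein NOXA, read 9.44, 9.91, 8.90 and 9.83, and the RNA-binding protein gene RBM38 read 8.32, 8.66, 7.69 and 8.54. The kinetochore gene CENPH read 8.86, 8.52, 7.52 and 8.46 on a probe set with the suffix _x_at, whose probes can bind related transcripts, as did 3 other members, TASL, MANSC1 and B3GALNT1. MEIOC read 8.57, 7.12, 6.22 and 7.41. Among non-coding or little-described genes, NAPSB, a pseudogene close to NAPSA, read 9.84, 7.79, 6.56 and 7.71, and its reads cannot be separated from those of its relative by level alone. The long non-coding RNA LINC01133 read 7.76, 6.74, 5.62 and 6.91, and BRD3OS 9.10, 8.58, 7.57 and 8.61. FAM117B read 9.08, 8.13, 6.68 and 8.29, CCDC78 7.78, 7.03, 6.04 and 7.04, and FAM216A 11.71, 10.62, 9.73 and 10.56. FAM201A read 7.95, 6.89, 6.09 and 6.99, and C16orf54 10.93, 10.23, 9.43 and 10.34. All 8 were lower with Pam3CSK4 than at rest, as were 60 of all 83 members and 57.7% of all genes past the filter. The role groups were drawn up after the members were known.

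The promoters of members were searched for short motifs of factors that act in myeloid cells, in windows from 250 bases before to 50 after a gene start, from RefSeq on GRCh38.p14. Of the 83 members 66 had such windows, 100 in number. The windows of 4 members are shown as examples, since these genes dipped by over 1.0 log2 and hold letters of the myeloid factors PU.1 or C/EBP. Other members that hold them, such as HAL and LGR4, are not shown. Capitals mark GAGGAAGT or its reverse complement (PU.1) in BTK and RIPOR2, TTGCNNAA or its reverse complement (C/EBP) in MNDA and TLR8, and the interferon response motif in MNDA.
BTK (chrX:101390747-101391046, minus strand): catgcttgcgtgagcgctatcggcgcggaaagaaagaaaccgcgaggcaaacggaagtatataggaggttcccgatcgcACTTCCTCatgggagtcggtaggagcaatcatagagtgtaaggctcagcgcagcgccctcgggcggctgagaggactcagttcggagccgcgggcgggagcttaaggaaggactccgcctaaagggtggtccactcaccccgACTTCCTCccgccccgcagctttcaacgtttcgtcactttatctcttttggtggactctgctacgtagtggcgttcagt
RIPOR2 (chr6:24910685-24910984, minus strand): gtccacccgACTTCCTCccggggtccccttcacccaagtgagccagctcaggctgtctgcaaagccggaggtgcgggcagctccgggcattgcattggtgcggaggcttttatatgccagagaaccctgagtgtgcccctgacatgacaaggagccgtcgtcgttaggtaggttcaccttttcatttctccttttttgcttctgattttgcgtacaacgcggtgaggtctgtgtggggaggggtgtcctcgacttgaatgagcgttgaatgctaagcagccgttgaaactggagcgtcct
MNDA (chr1:158831101-158831400, plus strand): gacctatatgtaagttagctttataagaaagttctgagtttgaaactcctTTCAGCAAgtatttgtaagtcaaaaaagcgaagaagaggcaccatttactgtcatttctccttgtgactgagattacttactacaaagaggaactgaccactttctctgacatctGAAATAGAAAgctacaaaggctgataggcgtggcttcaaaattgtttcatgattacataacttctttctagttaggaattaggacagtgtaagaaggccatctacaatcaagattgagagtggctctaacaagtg
TLR8 (chrX:12906370-12906669, plus strand): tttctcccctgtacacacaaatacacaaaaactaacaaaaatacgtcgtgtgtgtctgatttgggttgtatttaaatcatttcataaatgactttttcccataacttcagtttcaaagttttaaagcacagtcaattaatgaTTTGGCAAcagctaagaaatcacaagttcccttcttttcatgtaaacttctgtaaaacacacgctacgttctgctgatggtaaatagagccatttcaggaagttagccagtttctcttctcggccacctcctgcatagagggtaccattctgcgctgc

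Counted from the gene start, BTK held the PU.1 letters from -171 and from -29 in 1 of its windows, and RIPOR2 from -241, also in 1 of its windows. MNDA held the C/EBP letters from -200 and the interferon response motif from -85, and TLR8 the C/EBP letters from -108. Both strands were searched, and the motifs shown do not overlap each other. C/EBP letters were in 16 of 100 member windows, or 16%, against 10.5% of all 35116 windows. PU.1 letters were in 3% against 2.59%, interferon response letters in 4% against 3.57%, and CACGTG (E-box) in 6% against 7.26%. AP-1 (TGANTCA) was in 5% against 7.71%, NF-kB in 5% against 6.52%, STAT (TTCNNNGAA) in 6% against 7.66%, and CRE (TGACGTCA) in 0 of 100 against 1.85%. These are letter matches, not sites.

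The resting level was not used by the rule beyond the level filter, and it divided the members. Through that filter 3 members, NFE2, DACH1 and FGF13, entered by their resting value alone, with Pam3CSK4 and 24 h values under 6.19. All 3 were thus bound to read below rest with Pam3CSK4, and NFE2 and DACH1 count among the 21 given next. With Pam3CSK4, 21 of 83 members were at least 2-fold lower than at rest, 25.3%, where 1.71% of all genes past the filter were. The other extreme held 8 members, 9.64%, against 4.14% of all genes, and 54 members were within 2-fold. Among these 8, TLR8, RIPOR2, TRPM1 and CLEC4A read under 6.19 at rest and so passed the level filter through the other arrays alone. They were thus bound to stand above rest with Pam3CSK4 or at 24 h. The median Pam3CSK4 minus resting difference was -0.44 over members and -0.05 over all genes past the filter. Because the rule asked for a high Pam3CSK4 value relative to 12 h, the Pam3CSK4 array was itself part of the choice. At 12 h, 62 of 83 members were at least 2-fold below resting, 74.7% against 4.21% of all genes, and 6 were at least 2-fold above, against 5.1%. The rule holds the 12 h value low, so these shares carry no independent weight. At 24 h the count below resting was 21, against 1.8% of all genes, and the count above was 8, against 4.49%.

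The 8 members above rest were TLR8, RIPOR2, TRPM1, LGALS2, GABBR2, CLEC4A, KLF4 and FAM20C, with differences from 5.46 down to 1.09 log2 on the probe set of the rule. On other probe sets past the filter KLF4 and FAM20C were within 2-fold of rest with Pam3CSK4. RIPOR2, TRPM1, GABBR2 and CLEC4A stayed at least 2-fold above it on theirs. The median distance of the 8 above rest was 1.40 at 12 h, against 2.45 with Pam3CSK4 and 2.52 at 24 h. The rule required the lower 12 h values, and FAM20C alone of the 8 read below its resting value, by 0.09. The 21 members below rest were led by MYADM at -2.58, DHRS9 at -2.14, NAPSB at -2.05 and DACH1 at -1.94. Their median was -2.14 at 12 h, against -1.16 with Pam3CSK4 and -1.21 at 24 h, and the rule with the class limit required the 12 h values to lie further from rest. TMT1A and BMP8B of this class read higher with Pam3CSK4 than at rest on another probe set past the filter. The others of the class with such probe sets read lower on them. The 54 between had medians of -0.35, -1.37 and -0.36. The median depth was alike in the 3 classes, 0.97, 0.93 and 0.93. The rule left only the resting array free to read below 12 h, and it did so for 8 of 83 members. Over all genes past the filter, with no such rule, the resting array was the lowest for 27.3% and the 12 h array for 41.3%, so these shares are not comparable.

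**Figure D2:**
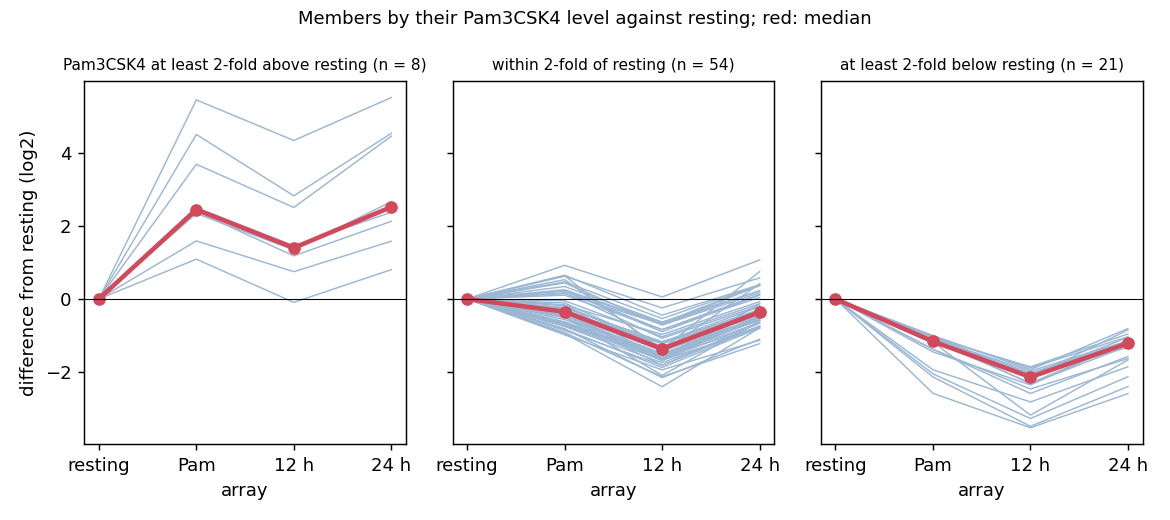
Difference from the resting array in log2 (y axis) on each of the 4 arrays (x axis), 1 blue line per member, in panels by the Pam3CSK4 level, with the median in red. In the left panel (8 genes) the 12 h median of 1.40 lies between rest and the Pam3CSK4 median of 2.45, while in the right panel (21 genes) the 12 h median of -2.14 lies beyond the Pam3CSK4 median of -1.16.

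Other probe sets of the same genes were not used by the rule and gave a further reading of the same RNA on the same arrays. Of the 83 members, 32 had 1 probe set only, and 41 had at least 1 other past the level filter. Those 41 genes had 67 such probe sets with a median depth of 0.45. A depth of at least 0.4 was reached by 36 of the 67, or 53.7%, against 5.45% of the 10503 other probe sets past the filter over all genes. A depth of 0.8 was reached by 12, or 17.9%, against 0.552%. For 21 of the 41 genes every other probe set past the filter lay at least 0.4 lower at 12 h, for 5 some did, and for 15 none did.

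Among members with a deep dip on another probe set were DHRS9, with depths of 1.43 and 1.49, NAPSB at 1.22, CDCA7 at 1.09, CLEC4A at 0.93 and ADGRA2 at 0.87. Both of these DHRS9 probe sets have the suffix _x_at, so their probes can bind related transcripts. ITGA4 read 0.87 and 0.49 on its others, ITGAL 0.70, HAL 0.68, RIPOR2 0.61, CXCR4 0.47 and 0.44, and PEBP1 0.54 and 0.45. For BMP8B the other probe sets split, at 1.29 and 0.17, for ADD3 at 0.94, 0.90 and 0.24, and for FAM117B at 0.76 and -0.45. The 15 members with no other probe set past the filter at a depth of 0.4 had at most 0.37 on them. S1PR3 had a depth of 1.87 on the probe set of the rule, and its other probe set read 6.40, 6.22, 6.76 and 6.31, highest at 12 h. TMT1A had -0.49 on its other probe set past the filter, DLX1 -0.32, and LGR4 0.06. IVNS1ABP read -0.09 and -0.16 on its others, and ARNT and BBX had nothing above 0.22. SPTBN1, with a depth of 1.16 on the probe set of the rule, had 0.21, -0.06 and -0.16 on its others past the filter. Under the filter it had 0.88 on 1 probe set and at most 0.11 on the rest. Past the filter, KLF4 had 0.15, MYADM 0.19, and FAM20C 0.24 and -0.04. For MEIOC, PMAIP1, IKBIP and ABCB4 the depths were 0.14, 0.25, 0.33 and 0.37. PLS3, BTK, MNDA, P2RY2 and GFI1 had no other probe set with which to compare, and TLR8 had 1 under the level filter, with a depth of 0.51.

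**Figure D3:**
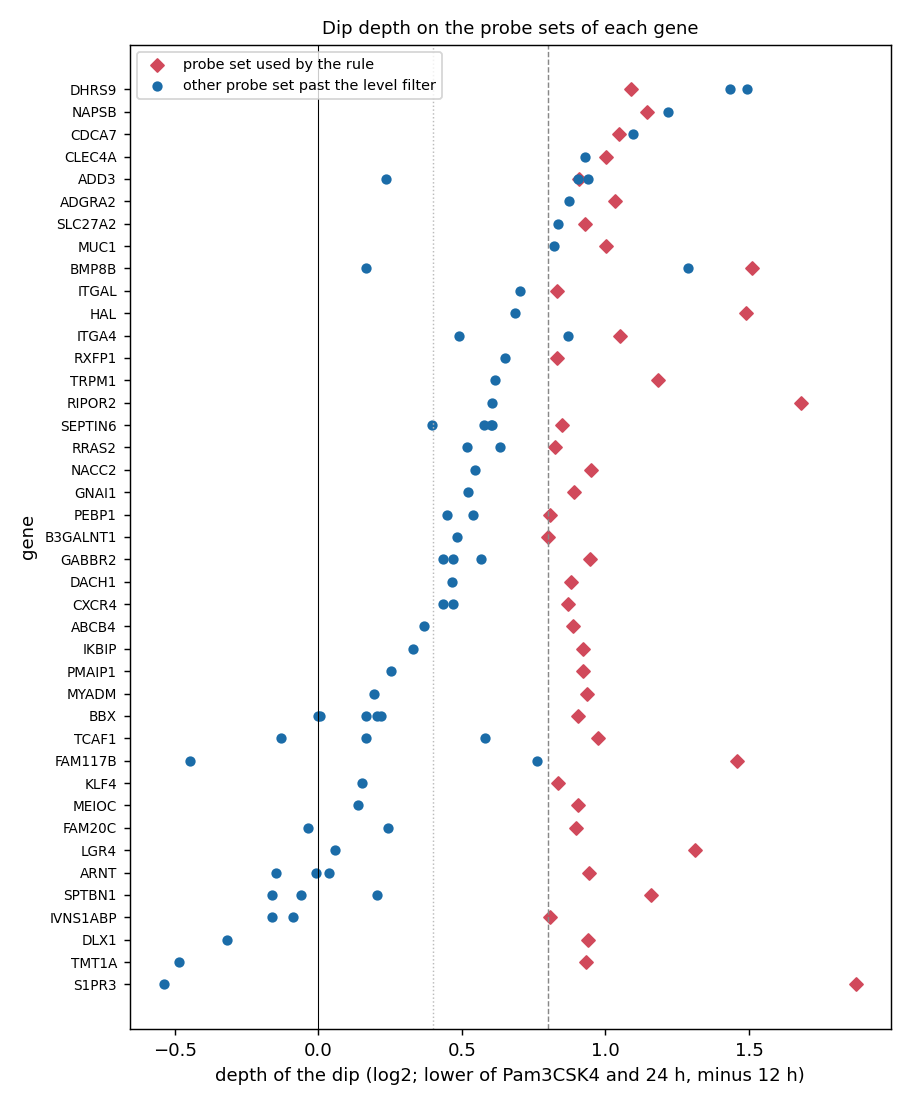
Depth of the dip in log2 (x axis) for the 41 members with another probe set past the level filter (y axis), on the probe set used by the rule (red diamonds) and on the others (blue points), with lines at 0, 0.4 (dotted) and 0.8 (dashed). DHRS9, NAPSB and CDCA7 at the top are as deep or deeper on their others, while S1PR3, TMT1A and DLX1 at the bottom lie below 0 there.

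Partners of the members were read in 11 lists of related genes. A list is described by its median 12 h minus Pam3CSK4 difference, beside -0.05 over all genes past the filter. These medians include the members, which the rule held at least 0.8 log2 below Pam3CSK4. In the BTK and immunoreceptor list, BTK was 1 of 24 genes past the filter, and no other of them lay at least 0.8 log2 below Pam3CSK4, and the median was -0.07. The adaptor gene LCP2, which encodes SLP-76, stood at -0.72 and the phosphatase gene PTPN6 at -0.63, while the B-cell linker gene BLNK stood at 0.87. In the BMP list BMP8B was 1 of 20 (median 0.01), with ID1 at 0.77, ID3 at 0.59 and GDF11 at -0.60. In the WNT receptor list LGR4 and FZD6 were 2 of 18 (median -0.13), FZD2 stood at -0.72, and the receptor gene FZD5 and the WNT-responsive factor gene LEF1 stood at 0.76 and 0.80. The partners of these signalling members thus lay on either side of their Pam3CSK4 level.

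Retinoid genes had a median of 0.05, with DHRS9 as 1 of 18, RETSAT at -0.46, CYP26B1 at 0.44 and STRA6 at 0.38. Actin crosslinkers had a median of -0.04, with PLS3 as 1 of 17, and the leukocyte actin regulator CORO1A at -0.80, just short of the threshold, and TAGLN2 at -0.53, against RDX at 0.38. Histidine genes had a median of -0.09 with HAL as 1 of 5, AOC1 at -0.23, HNMT at -0.09 and FTCD at 0.06. The PYHIN list had a median of 0.25 with MNDA as 1 of 3, beside the DNA sensors AIM2 at 0.47 and IFI16 at 0.25. Without probe sets of the suffix _x_at or _s_at, the kind on which IFI16 was read, that median was -0.35. So short a list is moved by a single gene, and MNDA, low at 12 h by the rule, stayed in it.

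Myeloid transcription factors had a median of -0.14, with GFI1 and KLF4 as 2 of 16, the progenitor factor MYB at -0.53, CEBPA at -0.29 and MAF at 0.67. Myeloid G-protein-coupled receptors had a median of 0.14, with S1PR3, P2RY2, CXCR4 and the fractalkine receptor gene CX3CR1 as 4 of 20. CX3CR1 stood at -0.93 but 0.68 below 24 h, so it was no member. CCR2, the receptor for CCL2, stood at -0.65, and PTAFR, the receptor for platelet-activating factor, at 0.63. Lipid efflux, sterol and scavenger genes had the lowest median, -0.53, with MYLIP alone of 14 beyond the threshold at -0.82, LPL at -0.75 and ABCA1 at -0.64, and no member. The cell cycle list, median -0.25, held 0 of 25 genes that far below Pam3CSK4, where 0.916% of all genes were, too few to read the 0 as a difference, with CCNB2 at -0.45, PCNA at -0.42 and CCND2 at 0.91.

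**Figure D4:**
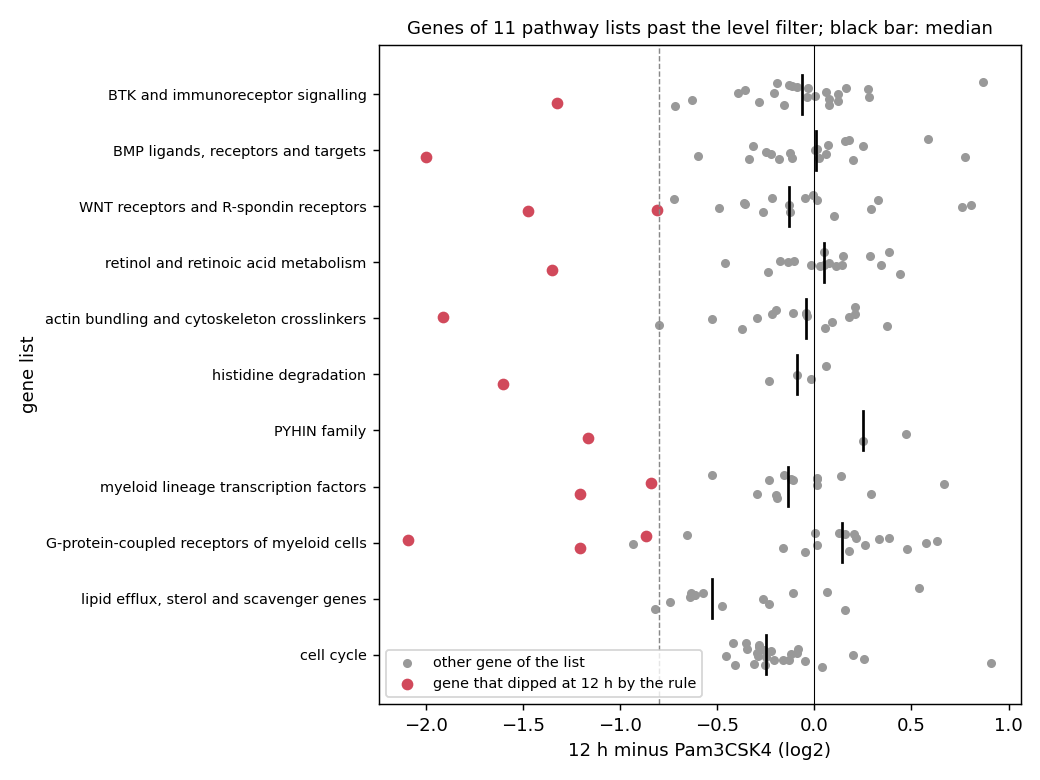
The 12 h minus Pam3CSK4 difference in log2 (x axis) of every gene past the level filter in 11 lists (y axis), with members in red, other genes in grey, list medians as black bars and a dashed line at -0.8. In 9 of the 11 lists 1 to 3 red points lie left of the line and the median stays between -0.14 and 0.25, while the lipid and cell cycle lists have no member and medians of -0.53 and -0.25.

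Markers of monocytes and of other cells were read on the same arrays. Of all 13422 genes past the filter, 7877 were lower at 12 h than with Pam3CSK4 and 5519 higher. Of 5 monocyte markers past the filter, 4 were lower at 12 h than with Pam3CSK4 and 1 higher, with a median of -0.40. Over the 6 with a value their median level was 8.04 at rest, 9.58 with Pam3CSK4, 9.29 at 12 h and 9.71 at 24 h. CD14, left out of the members, read 6.52, 8.93, 7.74 and 9.13, LYZ was at 13.70 with Pam3CSK4 and 13.29 at 12 h, and CSF1R went the other way, at 8.67 and 9.001. Of 6 platelet and megakaryocyte markers past the filter, 5 were higher at 12 h (median 0.37) and 0 differed by 0.8 log2. The defining platelet genes PPBP and PF4 were under the filter on all 4 arrays, at most 3.79 and 5.97. Gamma globin, read on 3 probe sets of HBG1 and HBG2, lay 2.62 to 4.04 log2 above Pam3CSK4 at 12 h and 3.38 to 5.004 above it at 24 h, where the members were back near their Pam3CSK4 level. The rule required the members to read higher at 24 h than at 12 h. Of the 4 erythroid markers past the filter all were higher at 12 h, with a median of 0.28 and HBE1 at 0.85. T cell, B cell, endothelial, and fibroblast and epithelial markers past the filter had medians of 0.24, 0.03, 0.47 and 0.13, and PECAM1, also a gene of monocytes, read 11.97 at 12 h against 11.41. The part of these shifts in the dip was not tested.

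At the edge of the rule, the 5 members just inside were B3GALNT1, C16orf54, FAM201A, PEBP1 and NFE2, with depths of 0.80 to 0.81. The 5 genes just outside were SLC1A1, KRABD5, UBE2J1, PID1 and SLC66A3, with depths of 0.797 down to 0.788. PID1 stood above rest with Pam3CSK4, at 5.39, 7.73, 6.94 and 7.77, and the other 4 lay below rest with Pam3CSK4. Of the genes left out by name, CA2, a carbonic anhydrase, had a depth of 1.46 and CD14 1.18.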

How the data were processed

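Total RNA of 4 THP-1 cultures was measured on Affymetrix expression arrays, 1 per condition. The deposited values are log2 values made by RMA in affy 1.28.1, per the submitters' processing notes, and no genome build is named. RMA gives the arrays a common distribution of probe signals, so a global change in RNA cannot be seen. Depth of signal over background was judged by level only. Groups came from the source labels, and times from the descriptions, since the titles carry 13 and 25 for the 12 h and 24 h arrays.

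Of 54675 probe sets, 41091 named 1 gene, 1801 several and 11721 were not listed in the platform annotation, beside 62 controls. Of a gene's probe sets the one with the highest mean was used. Identifiers of 41037 probe sets were found in RefSeq, and 0 symbols changed. Differences are of 2 log2 values with no test. Members and lists were chosen with earlier results of these data known. All members are named. 1 further list is not reported here. List genes named are the members and up to 3 others with the largest difference. Genes named outside this rule are cell markers, gamma globin, the reference genes ACTB and GAPDH, the genes left out by name and those at the edge of the threshold. Alternatives covered threshold, filter, probe set choice and scaling (limma 3.58.1 in R 4.3.3 for cyclic loess, 3 iterations). The rule was tested on simulated data. Python 3.11.15, numpy 2.4.6, pandas 2.3.3 and matplotlib 3.10.9 were used.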

Additional observations from a re-analysis of the deposited data

How the results depend on the processing

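No paired analysis was possible because each condition has 1 array. With 1 array per condition no replicate could be left out, and precision is limited to the agreement of probe sets. The count of 83 genes was 26 at a depth of 1.0 log2 and 248 at 0.6. It was 47 with probe sets averaged, of which 43 were members, and 49 by the smallest depth over a gene's probe sets, an alternative chosen after seeing the data. It stayed within 1.5-fold of 83 with no level filter (83), a 75th percentile filter (64), cyclic loess (68, of which 65 were members), a common median (97) and no _x_at or _s_at probe sets (67, of which 59 were members). With probe sets averaged the median depth was 0.81 and the median 12 h minus resting difference -1.18. At 1.5-fold instead of 2-fold, 36 members were lower with Pam3CSK4 than at rest, and at 3-fold 4 were. At 3-fold, 36 were lower at 12 h than at rest. Without _x_at and _s_at probe sets the depth was of opposite sign for EML1 (-0.0084), IVNS1ABP (-0.0887), LGR4 (-0.0712), TMT1A (-0.485) and TNKS2 (-0.0767). The probe sets left for EML1, LGR4 and TNKS2 were under the level filter on all 4 arrays, and those for IVNS1ABP and TMT1A were past it. In that setting the list medians were -0.36 for histidine degradation, -0.35 for PYHIN genes and -0.40 for lipid genes. With probe sets averaged they were 0.46 for PYHIN and -0.31 for lipid genes. The histidine and PYHIN lists were short, with 5 and 3 genes past the filter in the main setting. HAL and MNDA among them were low at 12 h by the rule. Among single members, 39 fell short of 0.8 log2 with probe sets averaged and 18 with cyclic loess. The other 81 summary values stayed within 0.119 log2, the robust spread of the 24 h minus Pam3CSK4 differences, or for counts within 1.5-fold. The cause of these shifts was not tested.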
